A study of Arabidopsis thaliana with 4 samples.

Results

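The beta-tubulin genes of Arabidopsis thaliana were examined in shoot apices after 1 h of LEC1-GR activation. The members are the genes whose probe set the platform annotation maps to that gene alone and whose symbol is TUB followed by digits. This gave 5 genes, TUB1, TUB5, TUB6, TUB7 and TUB9, each with 1 probe set, among 13356 genes with a probe set of their own. The reference gene table lists 9 beta-tubulin genes by that symbol, and the other 4, TUB2, TUB3, TUB4 and TUB8, were not analysed here. As each gene had 1 probe set, none had to be chosen by its level.

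The first group was 2 arrays of Ws-0 seedlings carrying 35S:LEC1-GR that had been incubated in liquid medium containing 30 µM dexamethasone for 1 h. The other group was 2 arrays of seedlings of the same genotype, kept for 1 h in the same medium without dexamethasone. All seedlings were 8 days old, the medium of both groups held 1% sucrose, and shoot apices were dissected after the incubation. LEC1 is a B subunit of the NF-Y transcription factor family that controls embryo development and seed maturation. The GR domain of the glucocorticoid receptor holds the fusion in an inactive state in the absence of dexamethasone, and the 35S promoter drives it in most tissues rather than where LEC1 is normally expressed. Plants without the fusion were not among the samples, so effects of dexamethasone itself and of LEC1-GR cannot be told apart. The comparison asks which transcripts differ shortly after LEC1 activation.

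Beta-tubulin pairs with alpha-tubulin in the dimers that polymerise into microtubules. In plant cells cortical microtubules guide the movement of cellulose synthase complexes and so the direction of cell expansion, and microtubules also form the preprophase band, spindle and phragmoplast of dividing cells. Both processes run in a shoot apex, where cells divide and young leaves expand. The proteins encoded by the beta-tubulin genes are very similar, and the genes differ mostly in when and where they are expressed.

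None of the 5 beta-tubulin genes passed the test between dexamethasone and no dexamethasone, although all 5 had a lower mean with dexamethasone. A gene passed, or was called, at an adjusted p under 0.05 in limma, a linear model fitted across all 22746 probe sets, with Benjamini-Hochberg adjustment over them. By that rule 0.879% of the tested probe sets were called lower with dexamethasone and 1.49% higher, 2.37% in all. At an unadjusted limma p under 0.05, 2 of the 5 genes, TUB9 and TUB5, were lower with dexamethasone, as were 8.37% of all tested probe sets. The 5 differences, dexamethasone minus none on the log2 scale, ranged from -0.78 to -0.22 with a median of -0.31. The median difference of all tested probe sets was -0.017, and 53.1% of them had a difference below 0.

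TUB9 (AT4G20890, chromosome 4) had the largest difference of the 5. In earlier work on cold-treated Arabidopsis leaves its transcript was reported to increase while those of several other beta-tubulin genes decreased. Its log2 expression values were 10.51 and 10.31 in the dexamethasone arrays, against 11.21 and 11.18 in the arrays without dexamethasone. Both dexamethasone arrays lay below both untreated arrays, and the gap between the groups was wider than the distance between the arrays of either group. The means were 10.41 ± 0.14 with dexamethasone and 11.19 ± 0.02 without (SD, n = 2 per group), 1.72-fold lower with dexamethasone. The difference was -0.78 ± 0.135 (log2, SE of limma), with a 95% interval from -1.125 to -0.435. Its limma adjusted p of 0.0632 missed the threshold, while the unadjusted limma p was 0.00206 and 3.24% of the tested probe sets had a smaller one. Of all tested probe sets 594, or 2.61%, had a difference at or below that of TUB9.

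TUB5 (AT1G20010, chromosome 1) also had separated groups, with a smaller gap. Its values were 10.38 and 10.31 in the dexamethasone arrays, against 10.64 and 10.87 in the untreated arrays. The dexamethasone arrays lay close together, and the untreated arrays were further apart. The difference was -0.41 ± 0.142 (log2, SE), with a 95% interval from -0.77 to -0.05 and a limma adjusted p of 0.24.

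TUB6 (AT5G12250, chromosome 5), for which lower transcript levels in the cold were reported in Arabidopsis leaves, had values of 10.62 and 10.20 in the dexamethasone arrays, against 10.64 and 10.81 in the untreated arrays. The groups did not overlap, but dexamethasone replicate 1 lay barely below untreated replicate 1, so the separation came mostly from dexamethasone replicate 2. The difference was -0.31 ± 0.187 (log2, SE), with a 95% interval from -0.79 to 0.17 and a limma adjusted p of 0.50. With TUB9 and TUB5, TUB6 made 3 of 5 genes whose dexamethasone arrays both lay below the untreated arrays. The same was true of 24.8% of all tested probe sets.

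TUB1 (AT1G75780, chromosome 1), whose transcript is known to be lowered by light in Arabidopsis seedlings, had overlapping groups. Its values were 9.02 and 8.56 in the dexamethasone arrays, against 8.74 and 9.29 in the untreated arrays. Its lowest array was dexamethasone replicate 2 and its highest untreated replicate 2, as for TUB5 and TUB6. For TUB1, however, the arrays within each group were further apart than the means of the groups. The difference was -0.22 ± 0.257 (log2, SE), with a 95% interval from -0.88 to 0.43 and a limma adjusted p of 0.76. The sign depended on 1 array of either group, as the difference was 0.011 without dexamethasone replicate 2 and 0.055 without untreated replicate 2.

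TUB7 (AT2G29550, chromosome 2) differed more between replicate numbers than between treatments. Its values were 10.22 and 9.56 in the dexamethasone arrays, against 10.55 and 9.78 in the untreated arrays. Replicate 1 exceeded replicate 2 by 0.66 in the dexamethasone group and by 0.77 in the untreated group (log2). It did so by at least as much in both groups for 0.193% of all tested probe sets. Equally large shifts with replicate 2 above replicate 1 were not counted. The treatment difference was -0.28 ± 0.34 (log2, SE), with a 95% interval from -1.15 to 0.59 and a limma adjusted p of 0.778. With the replicate number as a block the standard error was 0.133 and the limma adjusted p 0.358, so TUB7 stayed uncalled in a fit that called 3.78% of all tested probe sets. Without dexamethasone replicate 2 the difference was 0.05, and without untreated replicate 1 it was 0.11.

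**Figure D1:**
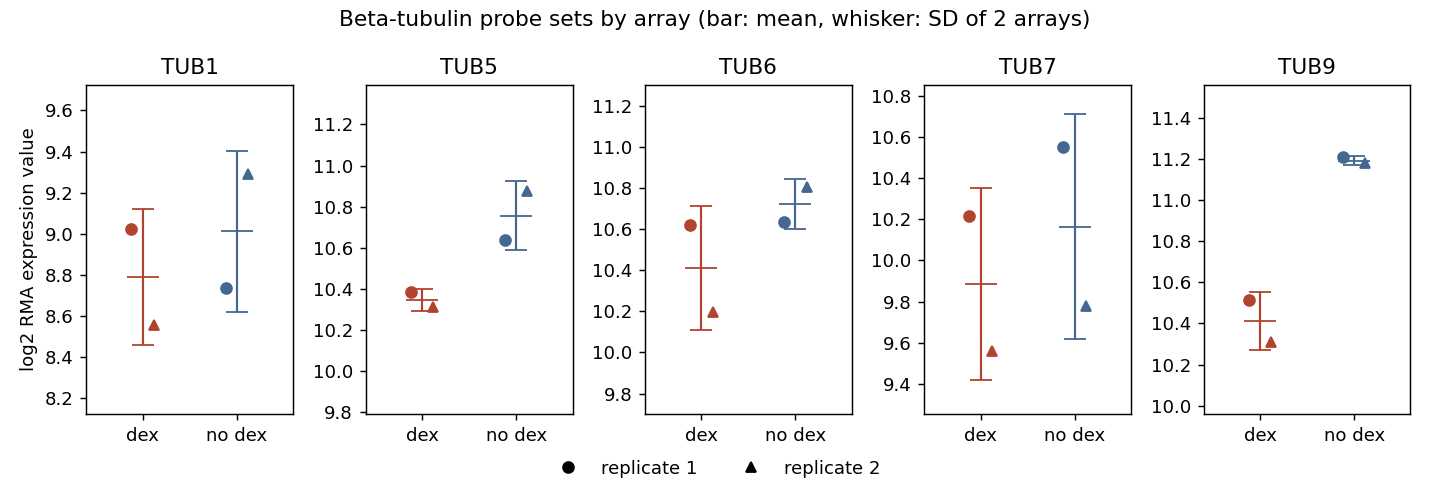
Log2 RMA expression values of the 5 beta-tubulin probe sets, with dexamethasone at the left of each panel and no dexamethasone at the right; circles are replicate 1, triangles replicate 2, bars group means and whiskers SDs of 2 arrays, and each vertical axis spans the same log2 range. TUB9, TUB5 and TUB6 have separated groups, while those of TUB1 and TUB7 overlap.

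The 5 genes did not share 1 pattern over the arrays. Replicate 1 lay above replicate 2 in the dexamethasone group for all 5 genes, by 0.07 for TUB5 up to 0.66 for TUB7. In the untreated group the same difference was positive for TUB7 (0.77) and near 0 for TUB9 (0.03), and it was negative for TUB6 (-0.17), TUB5 (-0.24) and TUB1 (-0.55). Over all tested probe sets the SD of this untreated difference was 0.406, and the values of TUB9, TUB6 and TUB5 lay within it. For the dexamethasone arrays the SD was 0.279. There TUB7, TUB1 (0.467) and TUB6 (0.425) lay beyond it, and TUB9 (0.20) and TUB5 within it. The plot of replicate differences shows TUB7 alone in the upper right corner. Probe sets differ in how strongly they bind their transcripts, so the levels of the 5 genes were not ranked against each other.

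**Figure D2:**
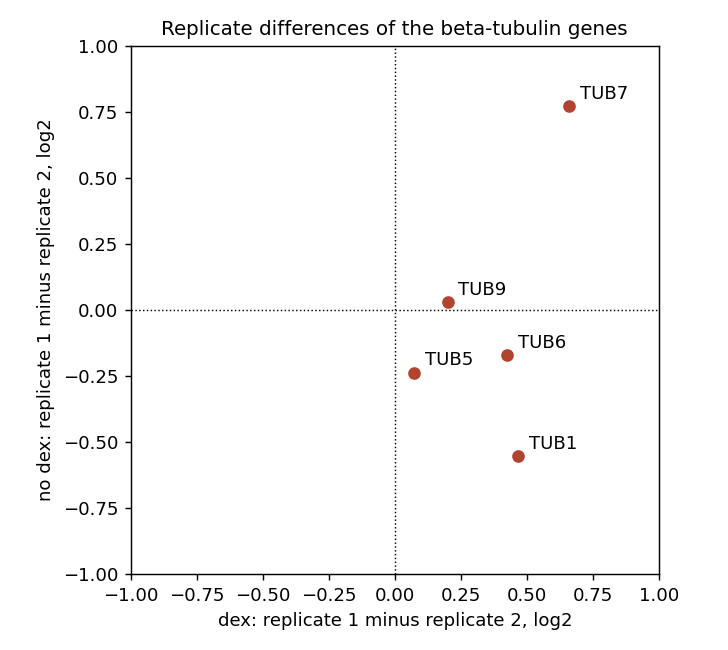
Replicate 1 minus replicate 2 for each beta-tubulin gene on the log2 scale, in the dexamethasone group (horizontal) and in the untreated group (vertical). TUB7 is high on both axes (0.66 and 0.77), whereas TUB1, TUB5 and TUB6 lie below 0 on the vertical axis.

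In all 5 genes the lowest of the 4 values was that of dexamethasone replicate 2, as it was in 25.0% of all tested probe sets. Without that array the median difference of the 5 genes was -0.10, against -0.31 with it, while TUB9 stood at -0.68 and TUB5 at -0.37. The control probe sets for the 3′ and 5′ ends of actin differed by 1.08 and 1.43 (log2) in dexamethasone replicates 1 and 2, against 0.99 and 1.06 in untreated replicates 1 and 2. For GAPDH, a glycolytic enzyme gene used as a control, the same distance was 1.14 and 1.32 with dexamethasone, against 1.16 and 1.08 without. In both of these pairs dexamethasone replicate 2 thus had the widest distance between the ends. A further actin pair had 3′ values of 11.455 and 11.389 with dexamethasone, against 11.365 and 11.303 without. Its 5′ values were 8.742 and 8.616, against 8.681 and 8.938. There the distance was narrowest in untreated replicate 2 and nearly alike in the other arrays. The part of these distances in the beta-tubulin values was not tested. The control probe set for 25S ribosomal RNA followed the replicate number, with 8.96 and 10.48 with dexamethasone, against 8.22 and 10.96 without. It was lower in replicate 1 of both groups, where TUB7 was higher, and a link between them was not tested.

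The alpha-tubulin genes, which encode the other subunit of the dimer, showed no common direction. Of 6 alpha-tubulin genes 2 were measured, meaning that the annotation used here named a probe set for that gene alone, and neither was called. Genes not measured in this sense may still be on the array, among the 8730 tested probe sets left unnamed or the 503 matching several genes. TUA6 had log2 values of 11.94 and 11.96 with dexamethasone, against 11.88 and 12.22 without, a difference of -0.10 ± 0.16 (SE). TUA1 had 9.04 and 8.82 with dexamethasone, against 8.72 and 8.98 without, a difference of 0.07 ± 0.16. The groups overlapped for both genes, and their 95% intervals ran from -0.51 to 0.31 for TUA6 and from -0.33 to 0.48 for TUA1. A difference between the alpha- and beta-tubulin genes was not tested.

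The measured genes that work with tubulin were also uncalled. Of 53 genes in 7 lists (alpha-tubulin, microtubule nucleation, tubulin folding, microtubule-associated proteins, actin, cellulose synthesis and cell division), 9 had a probe set of their own. Of these 9, 0 were called higher and 0 lower in limma, and their median difference was 0.01. Over all tested probe sets 2.37% were called, so 0 of 9 does not set these genes apart. The tubulin-folding cofactor genes POR (cofactor C) and PFI (cofactor E), whose products help to assemble the alpha-beta dimer, were the 2 measured of 5. POR had 7.14 and 6.87 with dexamethasone, against 6.67 and 6.29 without, and its difference of 0.53 ± 0.187 (log2, SE) had a limma adjusted p of 0.249. PFI had 7.49 and 7.56 with dexamethasone, against 7.45 and 7.19 without, with a difference of 0.21 ± 0.147 and a limma adjusted p of 0.583. Both dexamethasone arrays lay above both untreated arrays for 3 of the 9 genes, POR, PFI and ACT12, as for 22.3% of all tested probe sets. They lay below both untreated arrays for 2, AT5G17410 and SPR1, as for 24.8% of all tested probe sets. POR was the 1 of the 9 with an unadjusted limma p under 0.05 (0.0366), as 17.2% of all tested probe sets had in either direction.

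The differences of the remaining list genes lay between -0.22 and 0.23. AT5G17410, fixed in the list as GCP2, a gamma-tubulin complex protein gene of microtubule nucleation, stood at -0.15 ± 0.12 (log2 difference, SE). SPR1, whose product binds microtubule plus ends, stood at -0.20 ± 0.132, and COB, needed for oriented cellulose deposition, at 0.01 ± 0.195. The actin gene ACT11 stood at -0.22 ± 0.321. ACT12 stood at 0.23 ± 0.124, but all 4 of its values, from 3.775 to 4.08, lay below the control level of 4.68 to 4.86, the highest value per array among 27 probe sets for Bacillus transcripts. All beta-tubulin values, 8.56 to 11.21, lay above that level. For none of the 4 cell division genes of the lists did the annotation used here name a probe set of its own, so they could not be examined.

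**Figure D3:**
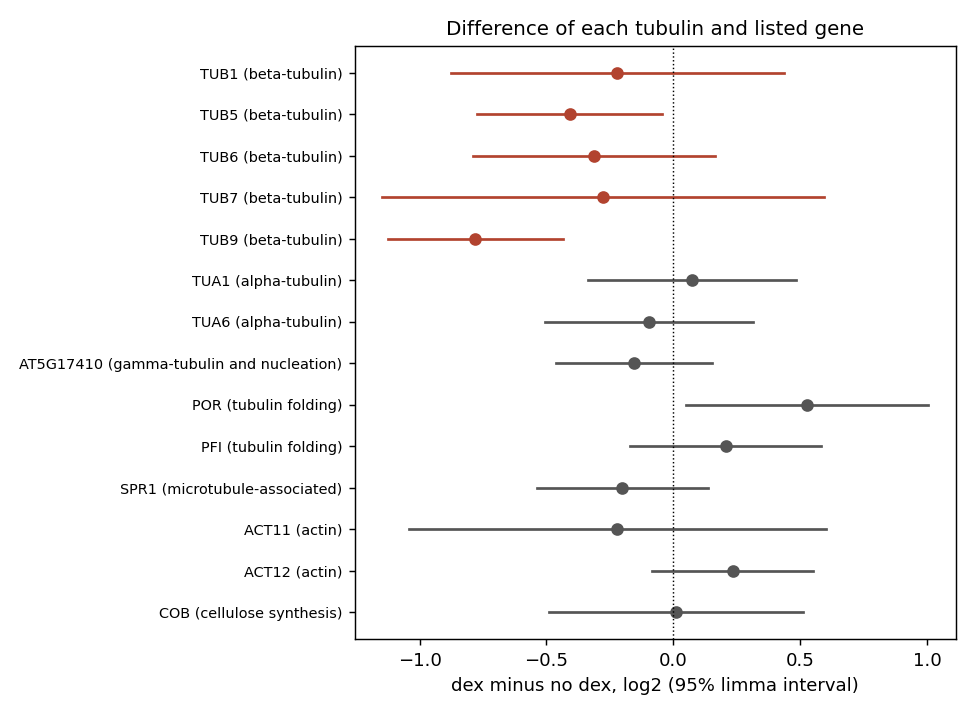
Difference between dexamethasone and no dexamethasone (log2) of the 5 beta-tubulin genes (red) and the 9 measured genes of the related lists (grey), with 95% intervals from limma; the dotted line marks 0. The intervals of TUB9, TUB5 and POR leave out 0, before adjustment over all probe sets.

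The tissue label was set beside fixed markers. Of 7 shoot apex markers 3 were measured. The light-harvesting gene LHCB4.1 lay between 13.28 and 13.41 in all arrays, and the leaf polarity gene YAB3 between 7.66 and 7.82. The stem cell gene CLV3 had 4.66 and 4.54 with dexamethasone, against 4.42 and 5.02 without, below the control level of its array in all but untreated replicate 2. Of 5 root markers 3 were measured. The root hair expansin genes EXPA7 and EXPA18 had their highest values, 6.25 and 6.46, in untreated replicate 2, against 4.59 to 5.20 in the other 3 arrays. PYK10, a root and hypocotyl beta-glucosidase gene, lay far above the control level in all arrays. Its highest value, 12.28, was also in untreated replicate 2, and it lay between 11.57 and 12.01 in the others. Untreated replicate 2 was also the highest array for TUB1, TUB5 and TUB6. The share of all tested probe sets with their highest value in that array was not computed. Without untreated replicate 2 the differences of TUB1, TUB5 and TUB6 were 0.055, -0.29 and -0.23. The part of root signal in them was not tested. In dissected tissue fewer cells that express a gene and less of its RNA per cell cannot be told apart.

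The 3 genes whose profile over the 4 arrays was most like that of TUB9, the member with the smallest p, were AT5G13090, AT5G61520 and AT4G26370. The measure was the root mean square distance between profiles, each centred on its own mean, and it was 0.011, 0.017 and 0.017 (log2). AT5G13090 had 7.85 and 7.66 with dexamethasone, against 8.56 and 8.51 without. The separated groups of these genes, and limma adjusted p values between 0.0582 and 0.0652, follow from their choice by likeness to TUB9 and are given as a description. By the same measure, the distances of the other beta-tubulin genes from TUB9 were 0.213 for TUB5, 0.257 for TUB6, 0.359 for TUB1 and 0.399 for TUB7.

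**Figure D4:**
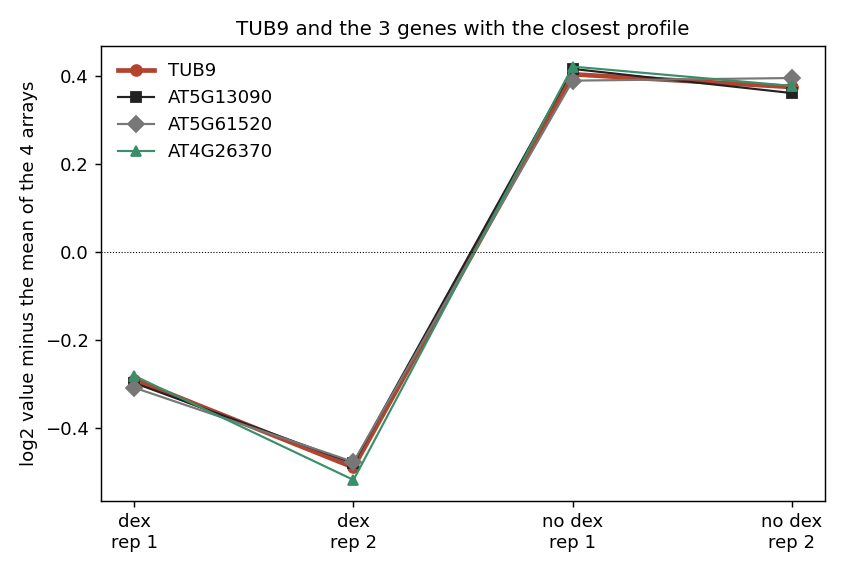
Log2 values of TUB9 and of AT5G13090, AT5G61520 and AT4G26370 in the 4 arrays, each minus its own mean over the arrays; the lines join arrays of 1 gene and do not stand for an order in time. All 4 genes have both dexamethasone arrays below both untreated arrays, as their choice by likeness to TUB9 requires.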

How the data were processed

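The authors deposited log2 expression values, 1 for each array and probe set, made with RMA and the affy package per the submitters' processing notes. For their versions, filters and array checks the sources used here give nothing. RMA sets all arrays to a common distribution, so a shift shared by all transcripts cannot be seen. Of 22810 probe sets, 64 control probe sets were left out and 22746 tested, of which 13513 match 1 gene, 503 several and 8730 are unnamed here. Names came from the platform annotation, matched by gene ID to the reference gene table, where all 5 members were found. No coordinates or sequences are printed, because the values name no genome build and no sequence table was used here; the planned promoter motif search was not run.

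Groups and replicate numbers came from the sample titles. The design text calls the 2 replicates per treatment biological. Dexamethasone was compared with none in limma 3.58.1 (R 4.3.3; lmFit, eBayes, two-sided, no block, Benjamini-Hochberg adjustment over all tested probe sets), after the fit was tested on simulated data. The simulated arrays had independent noise and changes larger than any beta-tubulin difference, so they do not speak for differences of this size. The prior degrees of freedom of the fit to the deposited values were 3.09. Arrays have no read depth, and their number limits the precision. The members, lists and tests were chosen with earlier results of these data known. Named were every member, the called genes of each list or else its 2 genes of smallest p (the other measured list and marker genes were added after their values were seen), and the 3 genes most like the member of smallest p.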

Additional observations from a re-analysis of the deposited data

How the results depend on the processing

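Under 8 alternatives that kept all arrays, 0 of the 5 beta-tubulin genes were called in limma and none changed sign. They were a replicate block, quantile normalization once more, arrays centred on their medians and the dimmest 30% of probe sets left out. The others were a trend or robust eBayes, only probe sets of 1 gene, and an adjusted p threshold of 0.01. The stricter threshold could only remove calls, so its 0 calls were fixed in advance. Quantile normalization and median centring alone could change a sign, as the other alternatives left every difference as it was. TUB9 came closest, with -0.80 to -0.775 and adjusted p between 0.0532 and 0.0632. With the replicate block its adjusted p was 0.0577, the median difference of the 5 genes was -0.31, and 0 of the 9 list genes were called; the block changed no call among these genes. Deviations of same-numbered arrays from their group means correlated at 0.227 over probe sets. With 2 pairs this does not establish pairing. The block called 859 probe sets in all, against 539 without it. Leaving out 1 array, with the lone array assumed to vary like the other group, gave 0 to 0 calls among the 5 genes and a median difference of -0.53 to -0.10. The differences then ran from -0.88 to -0.68 for TUB9 (adjusted p 0.084 to 0.329), -0.53 to -0.29 for TUB5, -0.53 to -0.10 for TUB6, -0.50 to 0.055 for TUB1 and -0.66 to 0.11 for TUB7, and the cause of these moves was not tested. Over all probe sets, limma called 0 without dexamethasone replicate 1 or 2 (2672 and 2448 at an unadjusted p under 0.05), 1192 without untreated replicate 1 and 432 without untreated replicate 2, against 539 with all arrays. Each beta-tubulin gene has 1 probe set of its own, so the alternatives that use further probe sets of a gene were not run.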
